A study of Drosophila melanogaster with 14 samples.

Results

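The nicotinic acetylcholine receptor subunit genes are the 10 *Drosophila* genes whose symbols in the deposited tables are nAChRalpha1 to nAChRalpha7 and nAChRbeta1 to nAChRbeta3. They were picked by symbol alone, among 17890 genes in the table of indirect flight muscle (IFM) and, joined by FBgn identifier, among 17490 genes in the table of larval wing discs. RNA-seq was done on 8 samples of IFM, the fibrillar muscles that drive the wing beat, dissected from pupae at 96 h after puparium formation (APF), and on 6 samples of wing discs, the larval epithelium that gives rise to the wing and carries the muscle precursors, from larvae of the third instar. IFM came from flies homozygous for a *Tet* null allele (Tet null), from flies homozygous for a catalytic dead *Tet* allele made on a GFP knock-in (Tet CD), from the *Tet-GFP* knock-in line, in which GFP is fused to the end of the TET protein, and from w1118 flies (wild type), 2 samples each. Wing discs came from Tet null and wild-type larvae, 3 samples each. *Tet-GFP* and Tet CD libraries are called 1 and 3 after their table columns, since the sample titles number them otherwise. The alleles were present in every cell of the animal, and the labels give neither how many animals went into a sample nor whether samples came from separate crosses, so that *P* values measure the spread between these samples only. The study set Tet null against wild type and Tet CD against *Tet-GFP*, to ask what the loss of TET and the loss of its enzymatic activity do to gene expression in muscle.

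The nicotinic receptors are cation channels assembled from several subunits around a central pore and opened by acetylcholine, the main fast excitatory transmitter of the insect central nervous system. Alpha subunits carry a pair of neighbouring cysteines in the transmitter binding loop, which beta subunits lack. The fly neuromuscular junction works with glutamate instead, and the motor neurons that excite the flight muscles receive acetylcholine in the thoracic ganglia. The subunits are also the targets of neonicotinoid insecticides and, for nAChRalpha6, of spinosad.

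Library depth was read from the spacing of the low values, which gives the RPKM (reads per kilobase of exon, scaled between libraries) of a single read. It came to 33.3 to 46.7 M reads on genes in IFM and 16.9 to 31.5 M in wing discs, and 1 read on a 1-kb gene was worth 0.0204 to 0.0280 RPKM in IFM and 0.0320 to 0.0465 RPKM in wing discs. *Tet* had 0.405 and 0.219 RPKM in the Tet null muscle libraries, against 2.04 and 3.01 RPKM in those of wild type, and 0.352 to 0.475 RPKM in Tet null discs, against 148 to 205 RPKM in wild-type discs. The flight muscle actin Act88F reached 12568 to 18040 RPKM in IFM and 0.542 to 3.73 RPKM in discs, and the wing gene nub 77.1 to 114 RPKM in discs and 0.147 to 1.12 RPKM in IFM. Tet null IFM sample 1 is tagged as wing disc, but its title and age are those of IFM and its Act88F and nub levels lay in the IFM range. Wild-type disc 2 stood apart from the other disc libraries, with 976 genes listed at 0 against 2376 to 3978 and a median over all genes of 3.37 RPKM against 0.811 to 1.14 RPKM.

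The 10 genes lie on the autosomal arms 2L, 3L and 3R and on the X (positions from BDGP6.54, the dm6 assembly). nAChRalpha1 (FBgn0000036, 3R:24393896-24457157), nAChRalpha2 (FBgn0000039, 3R:24485428-24491147) and nAChRbeta2 (FBgn0004118, 3R:24509228-24515106) are neighbours within 121.2 kb, with gaps of 28.27 and 18.08 kb between them. nAChRalpha3 (FBgn0015519, X:8276200-8367169) and nAChRalpha7 (FBgn0086778, X:19327075-19348447) are on the X, nAChRalpha4 (FBgn0266347, 3L:23206669-23287448) and nAChRbeta1 (FBgn0000038, 3L:4429349-4435993) on 3L, and nAChRalpha5 (FBgn0028875, 2L:14040170-14094401), nAChRalpha6 (FBgn0032151, 2L:9793317-9886250) and nAChRbeta3 (FBgn0031261, 2L:545129-547096) on 2L. Of the exon bases of nAChRalpha3 and nAChRalpha4, 251 of 10506 and 247 of 6050 are shared with exons of a gene on the other strand, CG1636 and lncRNA:CR46475, so that reads there could not be assigned to one gene with certainty.

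nAChRbeta3, the most divergent subunit, was listed at 0 in all 14 libraries. All 1532 of its exon bases lie inside exons of Ets21C, a transcription factor gene on the opposite strand. Of 575 genes whose exons lie wholly inside exons of other genes, 546 (95%) were listed at 0 in every library, against 176 of 16637 other genes (1.06%). The 0 of nAChRbeta3 was therefore not read as a level, and the values below cover the other 9 subunit genes.

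In wild-type IFM the 9 genes stood between 0.164 and 0.875 RPKM, and their reads summed to 1242 and 943 in wild-type samples 1 and 2. In Tet null IFM they stood between 0.826 and 6.72 RPKM, with 7010 and 6756 reads. The lowest single value in IFM was that of nAChRalpha2 in 1 *Tet-GFP* library, at 0.0217 RPKM or 2 reads (95% exact Poisson interval 0.242 to 7.22 reads), and the highest number of reads was 1185 for nAChRalpha7 in Tet null sample 1. Such intervals cover counting error only. In RNA from whole tissue, fewer cells of a type and less RNA per cell cannot be told apart, and this holds for each difference given here.

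**Figure D1:**
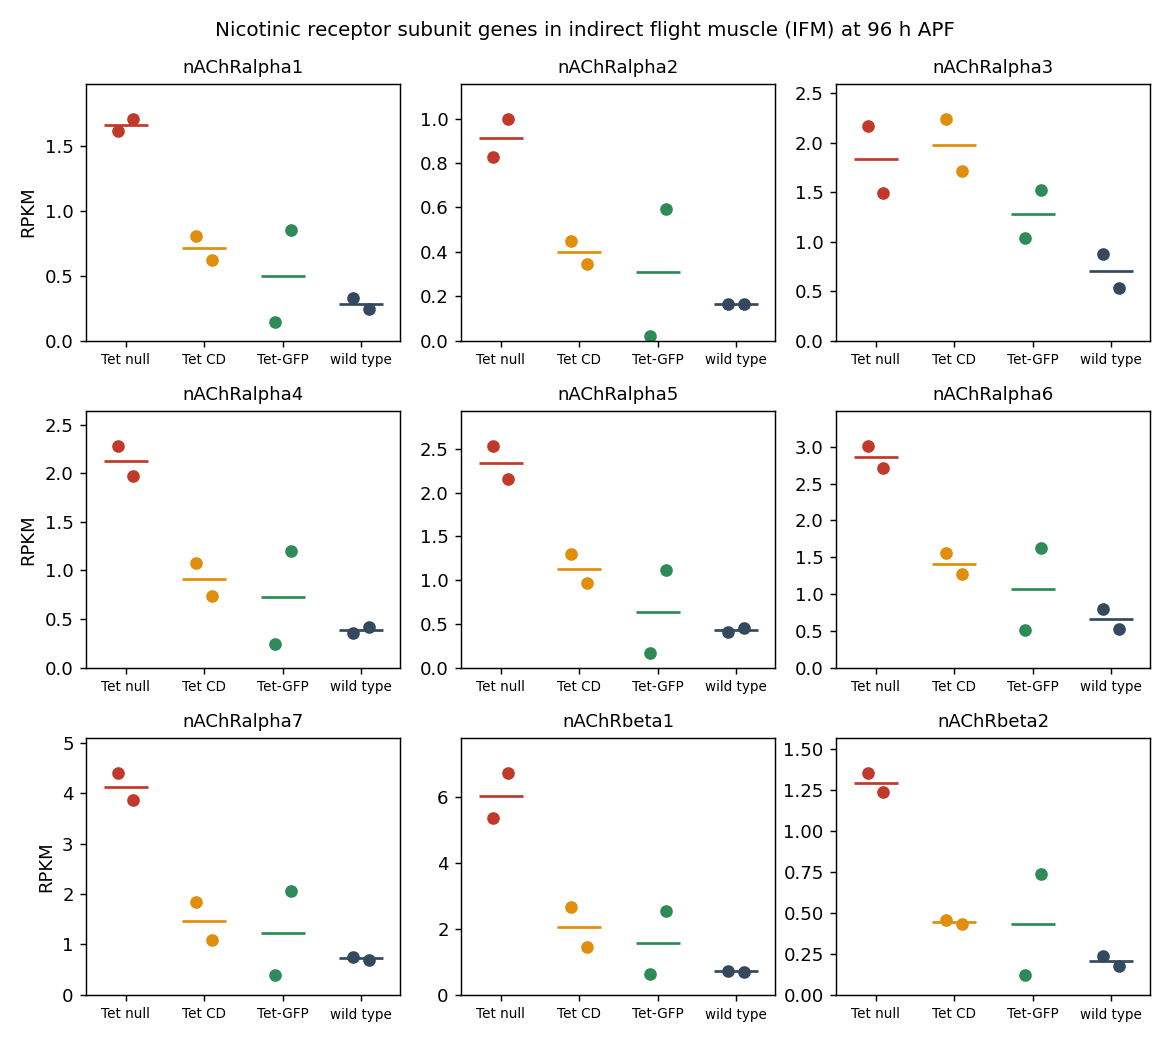
RPKM (linear axes from 0, 1 scale per gene) of the 9 subunit genes above 0 in each IFM library, by genotype. Points are libraries, with the lower column number at left, and lines are means of 2. Both Tet null points lie above the other 6 in every panel but that of nAChRalpha3, and the *Tet-GFP* points lie far apart.

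Among the alpha subunits whose closest vertebrate relative is alpha7, nAChRalpha7, which acts in the giant fibre escape pathway, stood at 4.40 and 3.87 RPKM in Tet null IFM, 1.83 and 1.10 RPKM in Tet CD, 0.386 and 2.07 RPKM in *Tet-GFP* and 0.748 and 0.697 RPKM in wild type. nAChRalpha6 stood at 3.01 and 2.71 RPKM in Tet null, 1.55 and 1.27 RPKM in Tet CD, 0.510 and 1.62 RPKM in *Tet-GFP* and 0.796 and 0.532 RPKM in wild type. nAChRalpha5, the remaining gene of this subgroup, stood at 2.53 and 2.16 RPKM in Tet null, 1.30 and 0.969 RPKM in Tet CD, 0.166 and 1.11 RPKM in *Tet-GFP* and 0.405 and 0.454 RPKM in wild type. In all 3 genes the Tet null libraries were the highest 2 of the 8 and the *Tet-GFP* libraries lay on either side of wild type.

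The gene with the highest level in Tet null IFM was nAChRbeta1, a beta subunit that takes part in neonicotinoid binding, at 5.35 and 6.72 RPKM in Tet null, 2.68 and 1.46 RPKM in Tet CD, 0.627 and 2.54 RPKM in *Tet-GFP* and 0.727 and 0.706 RPKM in wild type. nAChRalpha4, a gene with a role in sleep, stood at 2.28 and 1.98 RPKM in Tet null, 1.08 and 0.737 RPKM in Tet CD, 0.248 and 1.20 RPKM in *Tet-GFP* and 0.353 and 0.416 RPKM in wild type. Both genes followed the same order of libraries as the subgroup above, with Tet null highest, Tet CD 1 and *Tet-GFP* 3 next, and *Tet-GFP* 1 lowest.

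The 3 neighbouring genes on 3R, of which nAChRalpha1 and nAChRbeta2 are known for mutations that give resistance to neonicotinoids, had lower levels. nAChRalpha1 stood at 1.62 and 1.71 RPKM in Tet null, 0.804 and 0.623 RPKM in Tet CD, 0.141 and 0.854 RPKM in *Tet-GFP* and 0.325 and 0.241 RPKM in wild type. nAChRbeta2 stood at 1.35 and 1.24 RPKM in Tet null, 0.454 and 0.434 RPKM in Tet CD, 0.123 and 0.738 RPKM in *Tet-GFP* and 0.236 and 0.174 RPKM in wild type. Between them on the chromosome, nAChRalpha2 stood at 0.826 and 0.998 RPKM in Tet null, 0.448 and 0.346 RPKM in Tet CD, 0.0217 and 0.595 RPKM in *Tet-GFP* and 0.166 and 0.164 RPKM in wild type. It was the lowest of the 9 genes in each IFM library, and its wild-type values rested on 15 and 14 reads.

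nAChRalpha3 departed from this pattern. It stood at 2.17 and 1.498 RPKM in Tet null, 2.24 and 1.72 RPKM in Tet CD, 1.03 and 1.52 RPKM in *Tet-GFP* and 0.875 and 0.533 RPKM in wild type. The Tet CD libraries overlapped with the Tet null ones, and the 3 mutant or tagged genotypes all lay above wild type.

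Ordered by mean level in Tet null IFM, nAChRbeta1 (6.04 ± 0.962 RPKM, SD, n = 2) was followed by nAChRalpha7 (4.13 ± 0.373 RPKM), nAChRalpha6 (2.86 ± 0.208 RPKM) and nAChRalpha5 (2.34 ± 0.263 RPKM), and neighbours down to nAChRalpha5 did not overlap. nAChRalpha5, nAChRalpha4 and nAChRalpha3 overlapped each with the next, as did nAChRalpha3 with nAChRalpha1. In wild-type IFM nAChRalpha7 (0.723 ± 0.0359 RPKM, n = 2), nAChRbeta1 (0.716 ± 0.0149 RPKM), nAChRalpha3 (0.704 ± 0.242 RPKM) and nAChRalpha6 (0.664 ± 0.187 RPKM) overlapped each with the next and were not told apart. As a share of the summed RPKM of the 9 genes, nAChRbeta1 made up 22.8 and 29.4% in Tet null against 15.7 to 18.0% in wild type, and nAChRalpha3 6.55 to 9.23% in Tet null against 13.6 to 18.9% in wild type. The share of nAChRalpha3 was highest, at 31.7%, in *Tet-GFP* library 1, where the other subunits were low.

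**Figure D2:**
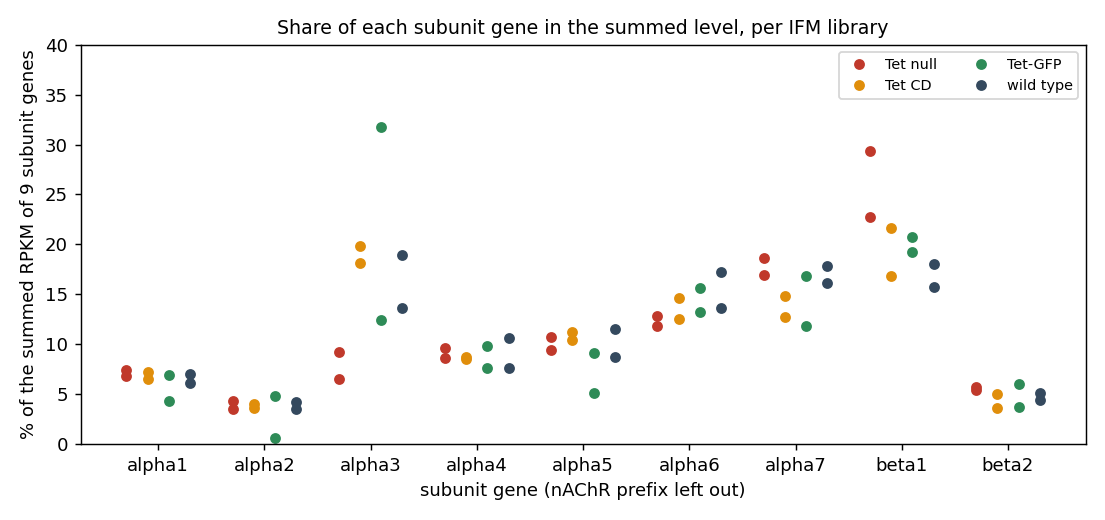
Share (%, y axis) of each subunit gene (x axis) in the summed RPKM of the 9 genes, with 1 point per IFM library and colours for genotype. The shares of nAChRalpha3 are lowest in the 2 Tet null libraries (6.55 and 9.23%), and those of nAChRbeta1 are highest there.

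To compare Tet null with wild type, limma was run on log2(RPKM + 0.5) of the 8466 genes that averaged 0.5 RPKM or more over the 4 libraries. A call required that the *P* value, adjusted by Benjamini-Hochberg for all of these genes, was under 0.05 and that the fold change was over 1.5. Of the 10 subunit genes, 7 were called higher in Tet null and 0 lower, and over all genes 5.5% were called higher and 2.79% lower. nAChRbeta1 had the largest log2 fold change, 2.42 (SE 0.20, adjusted *P* 0.0197 from limma), with means of 6.04 RPKM in Tet null and 0.716 RPKM in wild type, an 8.43-fold ratio. nAChRalpha7 followed with 1.92 (SE 0.18, adjusted *P* 0.0206 from limma), a 5.72-fold ratio of mean RPKM. The other 5 called genes were nAChRalpha5 (log2 fold change 1.61), nAChRalpha4 (1.57), nAChRalpha6 (1.54), nAChRalpha1 (1.47) and nAChRbeta2 (1.35), with adjusted *P* between 0.0280 and 0.0372 from limma.

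Neither nAChRalpha2 (log2 fold change 1.08, SE 0.22, adjusted *P* 0.0563 from limma) nor nAChRalpha3 (0.95, SE 0.26, adjusted *P* 0.102 from limma) was called, though both Tet null values lay above both wild-type values in each. Such a separation was found in each of the 9 genes tested, and over all genes tested 29% were apart in that direction and 30.2% in the other. The 0.5 added before the logarithm compressed the low genes, and the ratio of mean RPKM of nAChRalpha2 was 5.53, as was that of nAChRalpha4. That of nAChRalpha3 was 2.61, the smallest of the 9. The median log2 fold change of the 9 genes was 1.54, against −0.03 over all genes tested.

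For 5 of the genes, nAChRalpha1, nAChRalpha2, nAChRalpha4, nAChRalpha5 and nAChRbeta2, the wild-type mean was under 0.5 RPKM, so that they entered the test only through the Tet null libraries. Neither the count of calls nor that of separated values is thus support by itself for these genes. nAChRalpha3, nAChRalpha6, nAChRalpha7 and nAChRbeta1 had wild-type means above 0.5 RPKM, and the last 3 of these were called. With only 2 samples per genotype the calls were fragile: with Tet null 1, Tet null 2, wild type 1 or wild type 2 left out, 0 of the subunit genes were called (over all genes, 12 were called higher and 35 lower without wild type 1, and 0 without any of the other 3), while their log2 fold changes stayed positive, between 0.75 and 2.57. With no limit on low values, or with all 8 IFM libraries in the fit, only nAChRbeta1 was called.

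**Figure D3:**
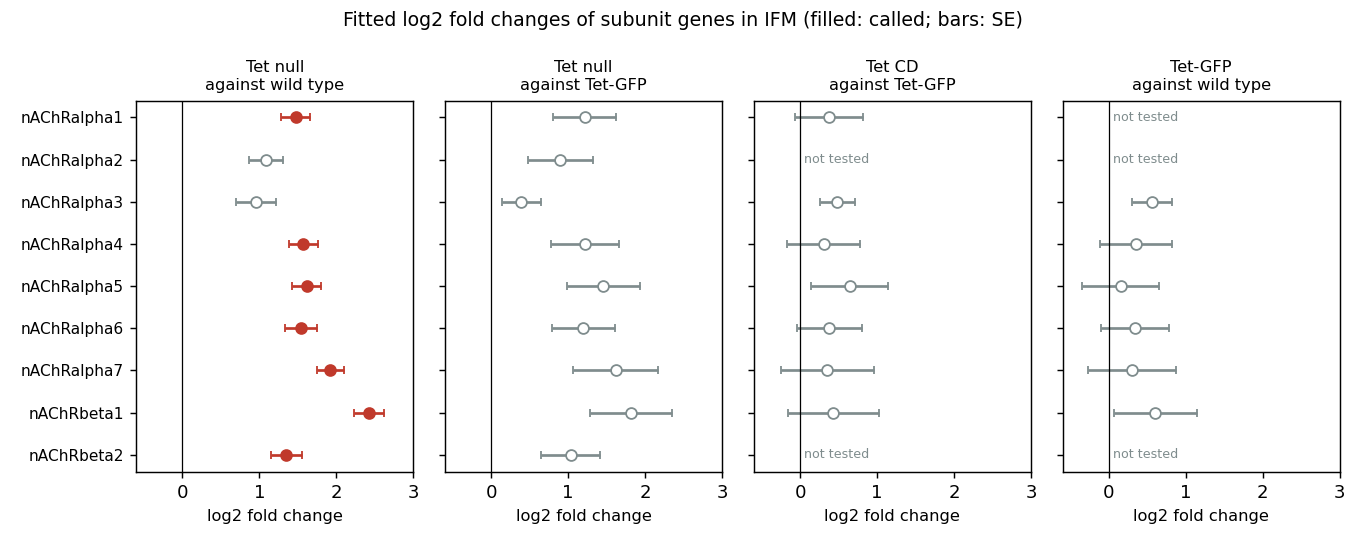
Fitted log2 fold changes of log2(RPKM + 0.5) (x axis, point and SE bar) of the 9 subunit genes in 4 IFM comparisons. Filled points mark the 7 genes called in Tet null against wild type, open points were not called, and genes under the limit on low values are marked as not tested.

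Set against the second control line, *Tet-GFP*, all 9 genes had positive log2 fold changes in Tet null, between 0.39 for nAChRalpha3 and 1.81 for nAChRbeta1, and 0 were called (limma, adjusted *P* 0.152 to 0.367). Over all 8369 genes 0.0119% were called higher and 0% lower in this comparison. In the same limma fit 6 of the 9 subunit genes had an unadjusted *P* under 0.05, as did 2230 of all 8369 genes. nAChRalpha1, nAChRalpha2 and nAChRbeta2 averaged under 0.5 RPKM in *Tet-GFP* and entered this comparison only through the Tet null libraries, and of the other 6 genes 5 had an unadjusted *P* under 0.05. Both Tet null values lay above both *Tet-GFP* values in 8 of the 9 genes, against 30.1% of all genes apart in that direction and 33% in the other, nAChRalpha3 being the exception. Without the 3 genes that the limit admitted through Tet null, the count was 5 of 6. The comparison shares the Tet null libraries with the one against wild type. Its spread came from the *Tet-GFP* side: library 3 was 1.47 to 27.4 times library 1 over the 9 genes, with a median of 5.36. Without *Tet-GFP* library 1 the log2 fold changes were still positive and 0 subunit genes were called, with 156 genes called higher and 98 lower over the whole table.

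Tet CD was compared with *Tet-GFP* to see the effect of losing the enzymatic activity alone. nAChRalpha2 and nAChRbeta2 were below the limit on low values. nAChRalpha1 averaged 0.497 RPKM in *Tet-GFP* and passed the limit only through Tet CD. The 7 genes tested had log2 fold changes of 0.31 to 0.65 with SEs of 0.23 to 0.61. None was called (limma, adjusted *P* 0.907 to 0.988), 0 had an unadjusted *P* under 0.05, and over all 8141 genes 0% were called higher and 0% lower, while 494 had an unadjusted *P* under 0.05. Only nAChRalpha3 had non-overlapping values, with 2.24 and 1.72 RPKM in Tet CD against 1.03 and 1.52 RPKM in *Tet-GFP*. Such a separation upwards was found in 15.4% of all genes, and downwards in 18.8%. In nAChRalpha1, nAChRalpha4, nAChRalpha6, nAChRalpha7 and nAChRbeta1 the sign rested on *Tet-GFP* library 1. Without that library their log2 fold changes were negative, at −0.16, −0.28, −0.16, −0.41 and −0.28. nAChRalpha3 and nAChRalpha5 stayed positive with each library left out in turn, with lowest values of 0.29 and 0.0099.

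The difference between the Tet null effect and the Tet CD effect was itself tested, as a contrast over all 8 IFM libraries. It was positive in the 8 genes tested, between 0.47 for nAChRalpha3 and 1.99 for nAChRbeta1 on the log2 scale, and 0 genes were called (limma, adjusted *P* 0.208 to 0.523), with 0.228% of all 8344 genes called higher and 0.455% lower. The unadjusted *P* from limma was under 0.05 in nAChRbeta1 and nAChRbeta2, and in 1563 of all 8344 genes. nAChRalpha1 and nAChRbeta2 averaged 0.498 and 0.36 RPKM over the other 6 libraries and passed the limit only through Tet null. The effects of the 2 alleles were therefore not shown to differ in these genes.

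The 2 control lines were also compared with each other. The 6 genes tested had log2 fold changes of 0.16 to 0.61 in *Tet-GFP* against wild type, and 0 were called (limma, adjusted *P* 0.561 to 0.929), with 0 at an unadjusted *P* under 0.05. Of these, nAChRalpha4 and nAChRalpha5 averaged 0.385 and 0.429 RPKM in wild type and passed the limit on low values only through *Tet-GFP*. Their positive sign is thus no support by itself. nAChRalpha3 alone had both *Tet-GFP* values above both wild-type values, a separation found in 20.6% of all genes upwards and 22.4% downwards. Over all 8156 genes 0% were called in either direction and 843 had an unadjusted *P* under 0.05. Without *Tet-GFP* library 3 the values of nAChRalpha6, nAChRalpha7 and nAChRbeta1 were negative, at −0.20, −0.46 and −0.11. Over all 8 IFM libraries and without a test, both Tet null values exceeded the other 6 in 7 of the 8 genes with a mean of at least 0.5 RPKM, against 18.2% of 8344 genes. nAChRalpha1 and nAChRbeta2, with means of 0.498 and 0.36 RPKM over the other 6 libraries, reached that mean only through Tet null, and without them the count was 5 of 6.

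Of 4 genes that make, load and clear acetylcholine, 2 were called higher in Tet null IFM and 0 lower (median log2 fold change 1.48). Ace, the acetylcholinesterase, stood at 5.32 and 4.67 RPKM in Tet null against 0.762 and 0.740 RPKM in wild type (log2 fold change 2.13, adjusted *P* 0.02003 from limma), and the vesicular transporter VAChT at 5.67 and 3.75 RPKM against 0.873 and 0.966 RPKM in wild type (1.85, adjusted *P* 0.030 from limma). The synthetic enzyme ChAT, at 1.65 and 1.18 RPKM in Tet null against 0.434 and 0.384 RPKM in wild type, and the choline transporter ChT were not called, with log2 fold changes of 1.06 and 1.11. ChT stood at 0.161 and 0.177 RPKM in wild type. Both ChAT and ChT thus passed the limit of 0.5 RPKM only through Tet null, which also bears on the median of this list.

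Of 7 genes listed for receptor assembly and synaptic anchoring, 2 were called higher and 0 lower, with a median log2 fold change of 0.32. hig, a protein of the cholinergic synaptic cleft, stood at 6.61 and 5.46 RPKM in Tet null against 0.621 and 0.581 RPKM in wild type (log2 fold change 2.56, adjusted *P* 0.0182 from limma). Hasp, a matrix protein that anchors hig there, stood at 8.93 and 6.78 RPKM against 0.970 and 0.666 RPKM in wild type (2.66, adjusted *P* 0.0203 from limma). The chaperone gene ric3 had a log2 fold change of 0.63, and Unc50 and Tmx3, with roles in receptor assembly or trafficking known from *Caenorhabditis elegans* and flies, had 0.32 and 0.32, none of them called. Nacho and qvr had −0.11 and −0.15. The called genes of this list were thus the 2 of the synaptic cleft.

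Other channels of the same superfamily were mixed. Of 12 listed, 5 passed the limit on low values and 2 were called higher: Rdl, a GABA receptor subunit, at 7.13 and 5.27 RPKM in Tet null against 1.07 and 1.09 RPKM in wild type (log2 fold change 2.07, adjusted *P* 0.0254 from limma), and GluClalpha, the glutamate-gated chloride channel (1.35, adjusted *P* 0.0372 from limma). CG12344 and SecCl had log2 fold changes of 2.05 and 1.44 and were not called. CG12344, at 0.327 and 0.106 RPKM in wild type, passed the limit only through Tet null. pHCl-1, named after its values were seen, was far more abundant than the nicotinic subunits, at 43.7 and 40.6 RPKM in Tet null against 88.7 and 66.9 RPKM in wild type, and its log2 fold change of −0.86 was not called. The glutamate receptor subunits of the muscle membrane were near the detection limit in IFM, with GluRIIA at 0.488 and 0.169 RPKM in Tet null against 0.0729 and 0.0860 RPKM in wild type. None of these 5 genes and none of the 3 muscarinic receptor genes passed the limit on low values in that comparison.

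Neuron markers moved together with the subunit genes. Of 14 markers, 11 were called higher in Tet null against wild type and 0 lower (median log2 fold change 1.95), and their summed level was 143 to 175 RPKM in Tet null, 62.9 to 93.6 RPKM in Tet CD, 52.7 to 89.2 RPKM in *Tet-GFP* and 42.8 to 55.0 RPKM in wild type. None of the 14 was at 0 in any IFM library. The synaptic vesicle gene nSyb stood at 15.9 and 13.0 RPKM in Tet null, 5.41 and 3.52 RPKM in Tet CD, 1.30 and 6.64 RPKM in *Tet-GFP* and 1.79 and 1.61 RPKM in wild type, so that the *Tet-GFP* libraries were apart in the same direction as in the subunit genes. The neuronal RNA-binding protein gene elav overlapped between genotypes (1.32 and 2.09 RPKM in Tet null against 1.40 and 1.45 RPKM in wild type).

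Of 4 motor neuron and glutamatergic markers, 3 were tested and 2 called higher, VGlut and Proc, with a summed level of 10.1 to 16.5 RPKM in Tet null, 1.93 to 6.23 RPKM in Tet CD, 1.36 to 4.94 RPKM in *Tet-GFP* and 1.36 to 2.67 RPKM in wild type, and eve was at 0 in some libraries. Of 9 glia markers, 7 were tested and alrm and nrv2 were called higher, with a summed level of 113 to 189 RPKM in Tet null, 34.9 to 63.5 RPKM in Tet CD, 45.6 to 56.0 RPKM in *Tet-GFP* and 47.0 to 61.1 RPKM in wild type. The glial transcription factor gene repo, at 1.39 and 1.25 RPKM in Tet null against 0.686 and 0.504 RPKM in wild type, was not called. Nor were Eaat1, moody, loco and Gli, with log2 fold changes of 0.99, 0.44, −0.06 and −0.76, both Tet null values of Gli lying below both wild-type values. The median level over the 9 glia markers was 2.53 and 1.75 RPKM in Tet null against 1.70 and 1.76 RPKM in wild type and overlapped between these genotypes. gcm was the one glia marker at 0 in some IFM libraries.

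Markers of other tissues did not follow the subunit genes. None of the 12 flight muscle markers was called (median log2 fold change −0.06, summed level 25453 to 32778 RPKM in Tet null against 27760 to 31528 RPKM in wild type). The 7 epidermis and cuticle markers were all called lower in Tet null, with a summed level of 131 to 219 RPKM in Tet null, 572 to 1002 RPKM in Tet CD, 472 to 532 RPKM in *Tet-GFP* and 1012 to 1441 RPKM in wild type. None of the 5 hemocyte, 7 fat body and 6 trachea markers tested was called, with median log2 fold changes of 0.20, −1.035 and −0.88. Positive values were found in 3 of the hemocyte, 0 of the fat body and 1 of the trachea markers. Expressed as a difference of mean log2(RPKM + 0.5), the 9 subunit genes stood below the 14 neuron markers by between −1.48 and −1.09 in the 8 IFM libraries, while the mean of the subunit genes itself ran from −0.29 to 1.502 on that scale. The part that the amount of neuronal tissue or of cuticle in the samples plays in the levels of the subunit genes was not tested.

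**Figure D4:**
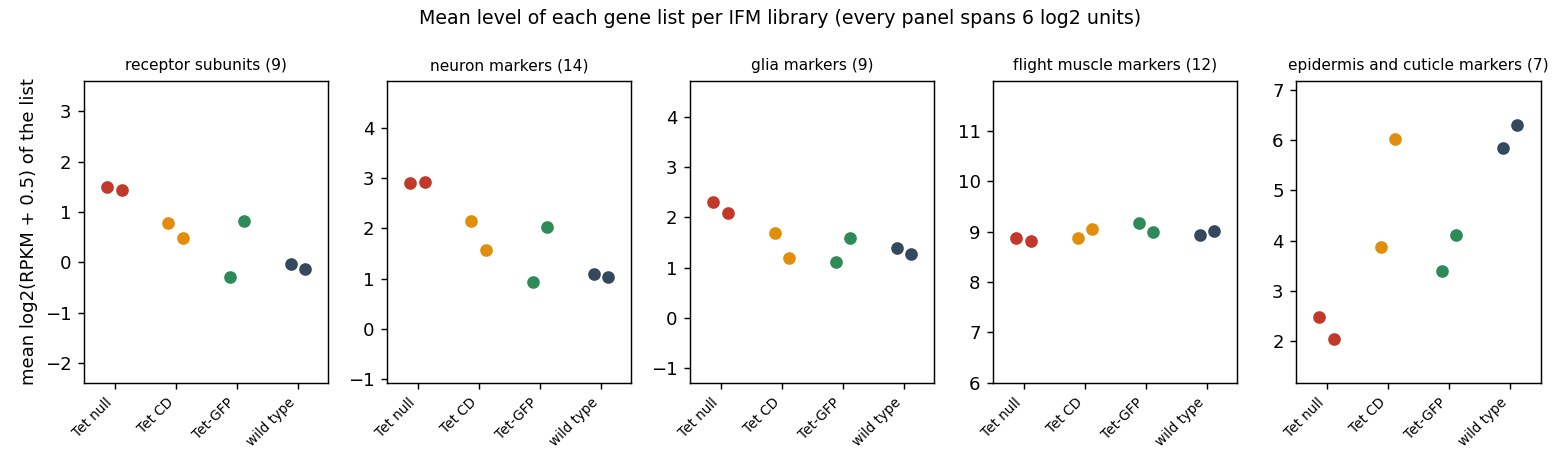
Mean log2(RPKM + 0.5) of 5 gene lists (y axis, each panel spanning 6 log2 units) in the 8 IFM libraries, by genotype (x axis), 1 point per library. The subunit genes and the neuron markers are both highest in the Tet null libraries and lowest in *Tet-GFP* library 1, while flight muscle markers vary little and cuticle markers are lowest in Tet null.

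The genes outside the family whose centred log2(RPKM + 0.5) profile over the 8 IFM libraries lay nearest to the mean profile of the subunit genes, among 8336 genes searched, were CG45002, klg, Ac3, dpr12 and Lrp4, at root-mean-square distances of 0.0735, 0.0867, 0.0886, 0.0958 and 0.102 on the log2 scale, against a median of 0.739 over all genes. CG45002, the nearest, stood at 1.70 and 1.65 RPKM in Tet null, 0.752 and 0.583 RPKM in Tet CD, 0.173 and 0.815 RPKM in *Tet-GFP* and 0.236 and 0.278 RPKM in wild type. Of the subunit genes themselves nAChRalpha1 was nearest to their mean profile (0.0568) and nAChRalpha3 farthest (0.416).

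In wing discs the subunit genes were close to the detection limit in 5 of the 6 libraries. There the 9 genes stood between 0 and 0.354 RPKM, and their reads summed to 100, 223 and 121 in the 3 Tet null discs and to 183 and 167 in wild-type discs 1 and 3. In wild-type disc 2 they stood between 1.57 and 2.90 RPKM, with 2885 reads. nAChRbeta1, the highest there, stood at 0.0228, 0.182 and 0.0323 RPKM in Tet null discs 1 to 3, against 0.109, 2.90 and 0.0595 RPKM in wild-type discs 1 to 3. The 9 genes were 5.87 to 31.9 times higher in wild-type disc 2 than in the higher of the other wild-type discs.

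Odorant and gustatory receptor genes, a list added after the values were seen, moved in the same library. The median of 120 such genes was 2.13 RPKM in wild-type disc 2 and 0.0271 to 0.135 RPKM in the other 5 discs. The 13 neuron markers in the disc table summed to 44.6 RPKM in wild-type disc 2 and to 21.5 to 27.9 RPKM in the others. Other lists stood at a like level in that library. Medians there were 2.51 RPKM for the glutamate receptor subunits of muscle, 2.46 RPKM for the muscarinic receptors and 2.22 RPKM for the other channels of the superfamily. The level of the subunit genes in wild-type disc 2 was thus not particular to them or to receptor genes of sensory neurons. The source of these reads was not tested.

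**Figure D5:**
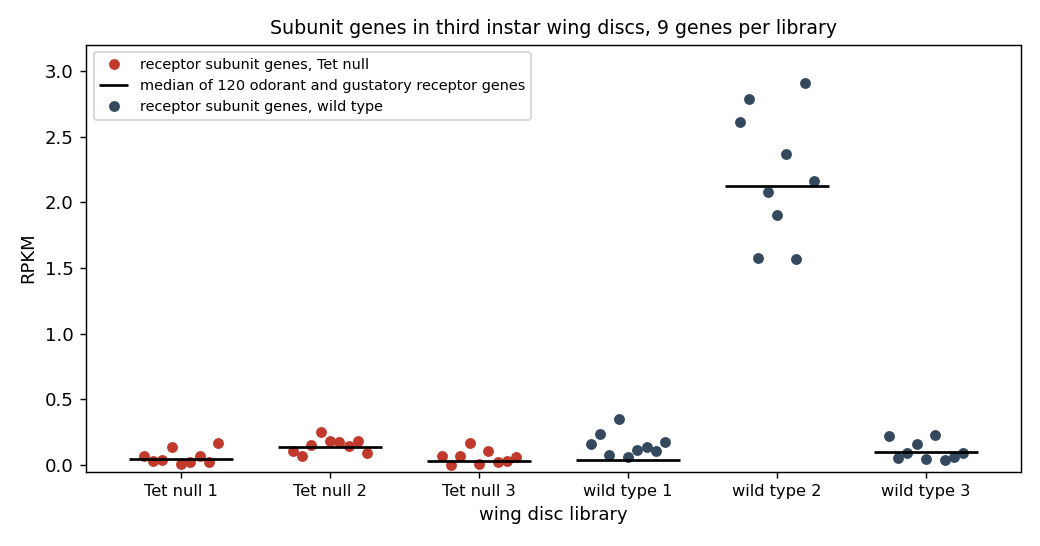
RPKM (linear axis) of the 9 subunit genes above 0 in each wing disc library, with the median of 120 odorant and gustatory receptor genes as a line. Points are genes. In wild-type disc 2 the subunit genes (1.57 to 2.90 RPKM) lie around that library's line (2.13 RPKM), and elsewhere no gene exceeds 0.354 RPKM.

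Between Tet null and wild-type discs, 5 of the 10 genes passed the limit on low values, nAChRalpha1, nAChRalpha2, nAChRalpha4, nAChRalpha6 and nAChRbeta1, and all did so through wild-type disc 2 alone, since without it no subunit gene had a mean above 0.214 RPKM. Their log2 fold changes were −1.05 to −0.73 with SEs of 0.86 to 1.03. Values of the groups were apart only in nAChRalpha1, with 0.0646, 0.106 and 0.0668 RPKM in Tet null discs against 0.156, 2.61 and 0.221 RPKM in wild-type discs, and 12.5% of all genes were apart in that direction. None was called (limma, adjusted *P* 0.607 to 0.635) and 0 had an unadjusted *P* under 0.05, with 1.67% of 12631 genes called higher and 2.48% lower. With the replicate number as a block, 343 genes were called higher and 593 lower instead of 211 and 313, and 0 subunit genes were called. Without wild-type disc 2 no subunit gene could be tested. The levels of the 2 tissues come from tables that were normalised separately and were not tested against each other. Side by side, the 9 genes summed to 3.26 to 23.5 RPKM over the IFM libraries and to 0.536 to 1.42 RPKM over the discs other than wild-type disc 2, which had 20.0 RPKM.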

How the data were processed

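The authors trimmed the reads (Cutadapt in the methods, Trimmomatic 0.32 in the submitters' processing notes), aligned them to dm6 with HISAT2 2.1.0, counted them per gene with HTSeq 0.11.2 against Ensembl release 70 and deposited RPKM, in a separate table for IFM and for wing discs. Whether the counting used strand is not given in the sources used here. The deposited values carry decimal commas, which were replaced by points, and were used as RPKM in every test.

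Reads per gene were recovered by dividing RPKM by that of 1 read at the exon length of BDGP6.54 (Ensembl release 115). Values of the subunit genes came out within 0.00157 of whole reads, and these reads were used for description only.

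For each comparison, genes averaging 0.5 RPKM or more in its libraries were taken, 0.5 was added, and the log2 values were fitted by lmFit and by eBayes with a mean-variance trend (limma 3.58.1, R 4.3.3). All genes so tested entered the Benjamini-Hochberg adjustment. A gene was called if its adjusted *P* was below 0.05 and it changed by more than 1.5-fold. The procedure was tested on simulated data. IFM comparisons share libraries. Tables and plots were made with Python 3.11.15, pandas 2.3.3, numpy 2.4.6 and matplotlib 3.10.9.

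The subunit genes and all gene lists were chosen with earlier results of these data known. Genes outside the family were named if they were on a fixed list of 10, among the up to 3 tested genes of a list with the largest change in Tet null against wild-type IFM, or among the 5 nearest profiles. Other genes were named after their values were seen. Replicate numbers come from the sample titles, except those of Tet CD and *Tet-GFP*, which come from the deposited columns. In wing discs, same-numbered Tet null and wild-type samples deviated together from their group means (*r* across genes 0.18, 0.30 and 0.15). So did Tet null 1 with wild type 3 (0.19) and Tet null 3 with wild type 1 (0.06). The remaining pairs ran from −0.31 to −0.13. The numbers were thus not shown to pair the samples, and the block was tried only as an alternative. The alternatives tried were other constants before the logarithm (0.1 and 1), no limit on low values or a limit of 1, median-ratio scaling, eBayes without trend, all 8 IFM libraries in the fit, a replicate block, and each library left out in turn. Leaving out libraries in the count of Tet null values above the other 6, and other limits there, were chosen after seeing the data. No sequences were used.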

Additional observations from a re-analysis of the deposited data

Results flagged for a closer look

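Values of nAChRalpha1 in Tet null and wild type were apart in opposite directions in the 2 tissues. Both Tet null IFM libraries (1.62 and 1.71 RPKM) lay above both wild-type ones (0.325 and 0.241 RPKM), whereas all 3 Tet null discs (0.0646, 0.106 and 0.0668 RPKM) lay below all 3 wild-type discs (0.156, 2.61 and 0.221 RPKM), with a log2 difference of −0.97 in discs. Over all genes tested, 29% were apart upwards in IFM and 12.5% downwards in discs. The share of genes apart in both of these ways was not counted. In wild-type IFM nAChRalpha1 averaged 0.283 RPKM, and it passed the limit on low values there only through Tet null. The disc values rested on 21, 28 and 23 reads in Tet null and on 37, 653 and 55 reads in wild type. The difference between tissues was not tested, as the tables were normalised separately. The disc difference was not called (SE 0.96, adjusted *P* 0.607 from limma), all 5 subunit genes tested in discs had negative log2 fold changes there, and without wild-type disc 2 the gene fell under the limit on low values.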

How the results depend on the processing

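In Tet null against wild-type IFM, 7 subunit genes were called in the fit as reported, 1 with no limit on low values and 1 with all 8 IFM libraries in the fit, both times nAChRbeta1. Leaving out each of the 4 libraries gave 0 to 0 calls, in fits that had 1 sample in an arm and assumed it to vary like the other arm. The other constants, limits and eBayes without trend kept the count within 1.5 times. Median-ratio scaling did so too, but it could change little. The deposited IFM values already had median-ratio factors of 0.998 to 1.028. In the other 5 comparisons 0 subunit genes were called under every alternative that could be run. Without wild-type disc 2 none could be tested in discs. The count of genes with both Tet null values above the other 6 IFM libraries was 7 of 8 at the limit of 0.5 RPKM. It was 8 of 9 with no limit on low values and 5 of 6 with a limit of 1. With each library left out it stayed at 7, but leaving a library out cannot undo such a separation. That alternative therefore could not test the count. These alternatives were chosen after seeing the data.

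Over all genes, the 466 higher and 236 lower calls of that comparison became 43 and 49 with no limit on low values and 286 and 263 with all 8 IFM libraries. Without wild type 1 they became 12 and 35, and without any of the other 3 libraries 0 and 0. Tet null against *Tet-GFP*, with 1 and 0, had 192 and 115 with all 8 libraries and 156 and 98 without *Tet-GFP* 1. With all 8 libraries, Tet CD against *Tet-GFP* had 9 and 13 in place of 0, and *Tet-GFP* against wild type 10 and 11. The 211 higher and 313 lower calls in discs became 84 and 90 with no limit on low values, 9 and 25 without the trend and 343 and 593 with the replicate block. They ran from 127 to 459 and from 162 to 459 with 1 disc left out. The difference between the effects of the alleles, with 19 and 38 calls, had 9 and 21 with 0.1 added before the logarithm, and 0 to 26 and 0 to 102 with 1 library left out.

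Signs turned only in 2 comparisons that involve *Tet-GFP*. With each library left out in turn, log2 fold changes in Tet CD against *Tet-GFP* ran from −0.16 to 0.92 (nAChRalpha1), −0.28 to 0.90 (nAChRalpha4), −0.16 to 0.92 (nAChRalpha6), −0.41 to 1.13 (nAChRalpha7) and −0.28 to 1.15 (nAChRbeta1), the lowest without *Tet-GFP* 1. In *Tet-GFP* against wild type they ran from −0.20 to 0.88 (nAChRalpha6), −0.46 to 1.07 (nAChRalpha7) and −0.11 to 1.32 (nAChRbeta1), the lowest without *Tet-GFP* 3. The cause was not tested.

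With a replicate block, 6 subunit genes were called in Tet null against wild-type IFM, nAChRbeta2 being lost (adjusted *P* 0.0591 from limma, 0.0341 to 0.0662 over its alternatives), and 0 in Tet CD against *Tet-GFP* and in discs. Same-numbered IFM samples of Tet null and wild type shared deviations of *r* 0.086 across genes, and Tet CD and *Tet-GFP* columns of 0.47, in 2 pairs each, so that only a number was taken to be shared there. Low read numbers limit nAChRalpha2 in IFM and, outside wild-type disc 2, all subunit genes in discs.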
